A study of Homo sapiens with 12 samples.

Results

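The addition of decitabine to doxorubicin plus cytarabine was examined by comparing relapsed cultures of HEL cells, an established human erythroleukemia line, that differed in this drug alone. The comparison held 7 of the 12 samples of the series, namely 3 cultures treated with doxorubicin and cytarabine (Doxo+Cyta, replicates 19, 20 and 22) and 4 treated with the same drugs and decitabine (Doxo+Cyta+DAC, replicates 30, 31, 32 and 33), and they were chosen by treatment label. Of the 26481 genes that the table gave a value, 0 included, 14164 passed a filter on low counts and were tested. All 7 cultures carried DNA barcodes and had received 1.8 µM doxorubicin and 6 µM cytarabine for at least 72 h, and the Doxo+Cyta+DAC cultures had received 0.1 µM decitabine at the same time. The drugs were then washed out, dead cells were removed on a density gradient, and the surviving cells were grown for about 30 days until the culture had reached a set number of cells, when RNA was taken. The measurement therefore describes regrown populations of a cell line long after the drug was gone, and a change within cells cannot be told apart from a change in which cells survived. The remaining samples of the series were cells grown with solvent alone (NT, n = 2) and relapses after doxorubicin alone (n = 3), which entered the fit and were otherwise used as levels set beside the comparison.

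Decitabine is a cytidine analog that is phosphorylated in the cell, built into DNA during replication and traps DNA methyltransferases, so that methylation is lost as cells divide. Cytarabine, another cytidine analog activated by the same first kinase, stops DNA synthesis, and doxorubicin poisons topoisomerase II. HEL cells carry an activated JAK2 and express genes of both the erythroid and the megakaryocyte lineage.

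Total counts were 15685369 to 16168598 per library in Doxo+Cyta and 12763582 to 19106235 in Doxo+Cyta+DAC, so that 3 counts, the lowest level treated as detectable, stood for 0.157 to 0.238 CPM (counts scaled to a common library total and for library composition). Between the groups, pairs of libraries differed by a root-mean-square log2 difference of 0.960 to 1.07 over the tested genes, against 0.414 to 0.513 within Doxo+Cyta+DAC. Doxo+Cyta replicate 20 stood apart from replicates 19 and 22, at 0.575 and 0.570, whereas those 2 differed by 0.356. Its 100 most abundant genes took 27.0% of its counts, against 23.2% in both others. Many results that change without replicate 20 are given with both values, but not every shift of a list count is given. Of the markers that define HEL cells, 9 of 10 were tested and their summed level was 9484 to 10419 CPM in Doxo+Cyta and 5857 to 8015 CPM in Doxo+Cyta+DAC, so the groups did not overlap. PF4, the remaining marker, had no count in any of the 7 libraries. Summed levels of markers of other blood and tissue cells were lower than those of the HEL markers in every library. The summed level of 5 myeloid markers was 0.306 to 0.801 CPM in Doxo+Cyta and 0 to 0.317 CPM in Doxo+Cyta+DAC, and the T- and B-cell genes CD3D, CD3E and MS4A1 did not exceed 0.158 CPM in any library. Of these lists, LYZ, CSF1R, CD2, CD79A, COL1A1, PDGFRB, PECAM1, VWF and KDR passed the filter on low counts, and FCN1, ELANE, PRTN3 and MS4A1 had no count in any library. Summed levels were 38.3 to 44.9 CPM in Doxo+Cyta and 27.8 to 29.9 CPM in Doxo+Cyta+DAC for 5 monocyte markers, 35.9 to 52.1 CPM in Doxo+Cyta and 20.3 to 44.0 CPM in Doxo+Cyta+DAC for 4 T-cell markers, 3.36 to 6.07 CPM in Doxo+Cyta and 0.963 to 1.73 CPM in Doxo+Cyta+DAC for 3 B-cell markers, 44.1 to 51.9 CPM in Doxo+Cyta and 7.02 to 10.1 CPM in Doxo+Cyta+DAC for 4 stromal markers and 139.9 to 176 CPM in Doxo+Cyta and 169.6 to 219 CPM in Doxo+Cyta+DAC for 4 endothelial markers. The part of these levels in the results was not tested. In these bulk samples, fewer cells of a type and less RNA per cell cannot be told apart.

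The relapses with and without decitabine differed broadly. A fold change over 2 with an adjusted p under 0.01 was reached by 1447 genes that were higher in Doxo+Cyta+DAC (10.2% of all tested genes) and by 1853 that were lower (13.1%). At an adjusted p under 0.05 alone, 4226 genes were higher (29.8%) and 4320 lower (30.5%), and these shares are the background for every gene list described here. The libraries of the groups did not overlap for 4105 higher (29%) and 3996 lower genes (28.2%). Over all tested genes the median log2 fold change was 0.00025, with quartiles of -0.60 and 0.57. The lower genes reached further from 0. A change over 4-fold was seen in 227 higher and 501 lower genes, and one over 8-fold in 46 higher and 130 lower genes. Without Doxo+Cyta replicate 20, 1566 higher and 1812 lower genes passed the stricter rule. Genes said here to rise, to fall or to be called had an adjusted p under 0.05 in edgeR's quasi-likelihood test, adjusted by Benjamini-Hochberg over all tested genes.

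Counts were spread more evenly over genes with decitabine. The 100 most abundant genes took 20.3 ± 0.64% of the counts (SD, n = 4) in Doxo+Cyta+DAC and 24.5 ± 2.22% (SD, n = 3) in Doxo+Cyta. This difference of -4.14 percentage points gave p = 0.0286 in a two-sided exact permutation test, the smallest p that 4 and 3 libraries allow, and p = 0.0286 after adjustment over both tests of this kind. Fewer genes reached 1 CPM, 12541 ± 43.3 (SD, n = 4) against 12738 ± 88.1 (SD, n = 3), a difference of -197 genes with p = 0.0286 in the same exact permutation test (adjusted p = 0.0286). Counted at 5 counts in place of 1 CPM, the difference of -229 genes gave p = 0.257 in that exact test.

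Genes switched on from near 0 were few, and the clearest was GDF3, a growth factor of the TGF-β family known from pluripotent cells (chr12:7689785-7695764, GRCh38). It had no count in any Doxo+Cyta library and 1.23, 1.17, 0.945 and 0.950 CPM in Doxo+Cyta+DAC replicates 30, 31, 32 and 33, the order used for all such values. Against the limit of 3 counts per library, GDF3 was at least 5.65-fold higher with decitabine (adjusted p = 1.19e-04), and NT cells held 0.149 CPM. CER1, a secreted antagonist of the same family of ligands, read 0.371, 1.13 and 0.122 CPM in Doxo+Cyta replicates 19, 20 and 22 and 8.33, 5.09, 4.30 and 6.02 CPM in Doxo+Cyta+DAC. Every decitabine library lay above every other, and a lack of overlap was required of all genes named for the largest fold changes. The log2 fold change of CER1 was 3.46 ± 0.52 (SE, as for all fold changes given with ±), with an adjusted p of 6.10e-05. Without Doxo+Cyta replicate 20, which was the highest of its group, it was 4.54.

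The receptor tyrosine kinase MET, which binds hepatocyte growth factor (chr7:116672405-116798386), was at 0.185, 0 and 0.0611 CPM in Doxo+Cyta and at 1.16, 3.44, 1.31 and 0.317 CPM with decitabine. Replicate 31 was the highest and replicate 33 the lowest, and no library overlapped (log2 fold change 4.10 ± 0.91, adjusted p = 0.00196, or 5.30 without Doxo+Cyta replicate 19 and 3.41 without Doxo+Cyta+DAC replicate 31). IL18RAP, the accessory chain of the interleukin-18 receptor, rose from 0.124, 0.267 and 0.183 CPM to 2.39, 3.71, 3.25 and 3.25 CPM, so that all 4 decitabine libraries were more than 8-fold above the highest other library (log2 fold change 4.00 ± 0.40, adjusted p = 2.05e-06). The histamine receptor HRH1 rose from 0.419 ± 0.120 CPM (SD, n = 3) to 5.51 ± 1.35 CPM (SD, n = 4), and the ephrin receptor EPHA1 from 0.345 ± 0.279 to 4.30 ± 1.30 CPM (log2 fold change 3.64, or 4.49 without Doxo+Cyta replicate 20). CHRNA10, a subunit of the nicotinic acetylcholine receptor, rose by 3.63 on the log2 scale (4.26 without Doxo+Cyta replicate 20), ARNT2, a partner of basic helix-loop-helix factors, by 4.11, and C15orf54 by 3.59. SLC27A4, which encodes a transporter of fatty acids, stood at 0.927, 3.47 and 1.22 CPM in Doxo+Cyta and 23.3, 20.8, 25.2 and 17.7 CPM with decitabine (log2 fold change 3.55 ± 0.41). The lowest decitabine library lay far above replicate 20, the highest of the others, and without replicate 20 the value was 4.33. FBN2, the matrix protein fibrillin-2, rested on 2 counts in Doxo+Cyta, and its ratio was 28.9 (95% interval 7.72 to 243) by the exact conditional method, which covers counting error only. RNVU1-14, a variant gene of the U1 small nuclear RNA, also rested on 2 counts, both in replicate 20, with a ratio of 24.3 (95% interval 6.46 to 205), and its reads could have been split with near-identical copies.

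The genes with the largest falls included CDKN1C, the imprinted gene of the cyclin-dependent kinase inhibitor p57 (chr11:2883218-2885765). Its level was 1.73, 1.27 and 1.59 CPM in Doxo+Cyta, and it had no count in any of the 4 decitabine libraries, which made it at least 7.79-fold lower against 3 counts per library (adjusted p = 4.79e-05). NT cells held 0.501 CPM. The annotation holds a further copy of CDKN1C on an alternate contig, and reads that matched both places were left out in all groups alike. NAALADL1, a peptidase gene, fell from 3.83, 2.40 and 2.38 CPM to 0, 0.138, 0 and 0.0792 CPM, a level 60.1 (95% interval 20.1 to 295) times as high without decitabine, and TMEM178A fell from 2.04, 1.27 and 1.28 to 0.0612, 0, 0 and 0.0792 CPM, where this ratio was 48.0 (95% interval 12.8 to 404). COL17A1, a collagen of epithelial anchoring junctions, was left with 2 counts in the decitabine libraries, both in replicate 32, a ratio of 32.9 (95% interval 8.64 to 279). The libraries of the groups did not overlap for any of these 4 genes, which the rule for naming them required.

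FAM178B (chr2:96875882-96986564) stood at 18.5, 22.6 and 19.2 CPM in Doxo+Cyta and 0.429, 0.413, 0.472 and 1.74 CPM with decitabine, and replicate 33 kept the most (log2 fold change -4.80 ± 0.32, adjusted p = 9.25e-08, or -5.49 without replicate 33). TPSB2, a tryptase of mast cells, fell from 74.2, 54.1 and 54.4 CPM to 1.84, 1.03, 2.68 and 4.12 CPM (log2 fold change -4.67 ± 0.33), and its neighbour TPSAB1 from 37.1 ± 7.33 (SD, n = 3) to 1.50 ± 0.795 CPM (SD, n = 4). NT cells lay between the groups, at 15.5 and 8.55 CPM, and since the tryptase genes are near-identical the split of reads between them is uncertain. Angiogenin (ANG), a secreted ribonuclease, fell by 4.92 on the log2 scale from 2.17 ± 0.235 CPM (SD, n = 3), and DEGS2, an enzyme of sphingolipid synthesis, fell by 4.87. ELFN2 fell by 4.51, CTD-3080P12.3 fell by 4.75 and MRPL23-AS1 fell by 5.56 (-6.94 without Doxo+Cyta+DAC replicate 33, which held 3 of its last 4 counts) on the same scale, and as counting ignored strand, reads of MRPL23-AS1 cannot be told apart from those of its partner on the opposite strand.

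**Figure D1:**
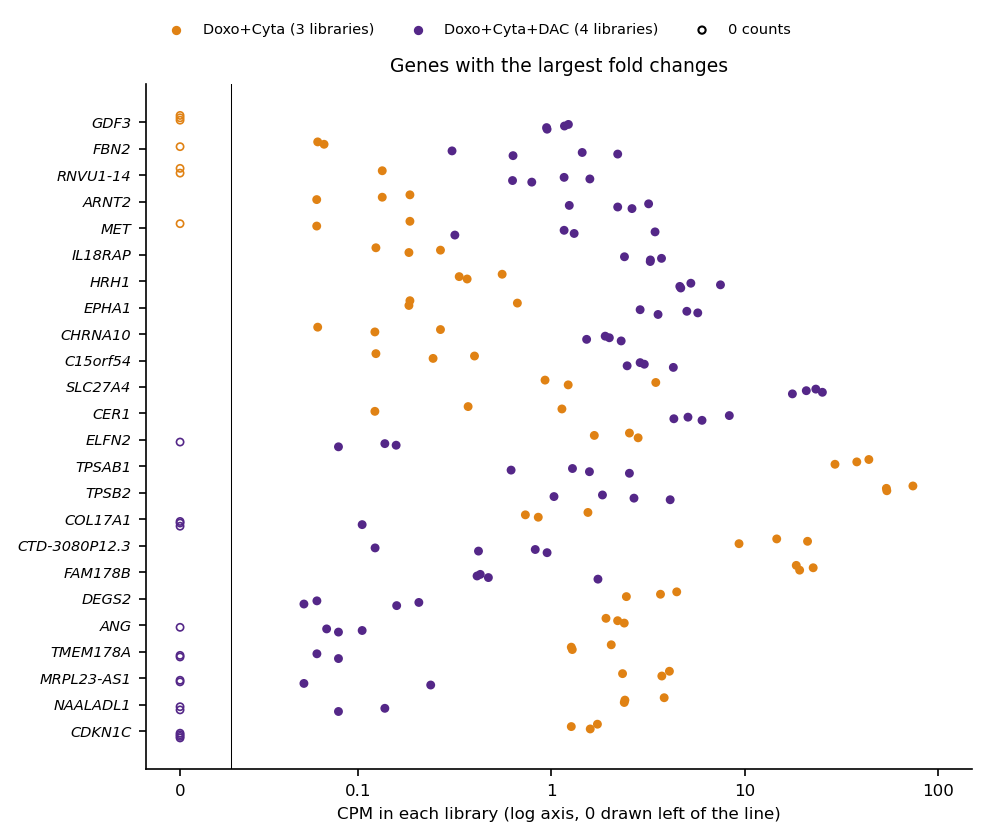
CPM in each library on a log axis (horizontal) for the 12 genes with the largest rise and the 12 with the largest fall that met the rule for named genes (vertical). Orange points are the 3 Doxo+Cyta libraries, purple points the 4 Doxo+Cyta+DAC libraries and open points are libraries with 0 counts, drawn left of the line. The groups do not overlap in any of the 24 genes, which the rule required.

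Genes without a count in every library of a group were rare. With more than 3 counts in each library of the other group, 5 genes were at 0 in all Doxo+Cyta libraries and 9 at 0 in all Doxo+Cyta+DAC libraries. IHH, the ligand Indian hedgehog, reached 0.490, 0.413, 0.787 and 0.475 CPM with decitabine, at least 2.85-fold above 3 counts per library, and WDR66 reached 0.735, 0.550, 0.682 and 0.554 CPM, at least 3.32-fold above. RNVU1-3, another U1 variant, read 0.551, 0.688, 0.577 and 0.475 CPM. ARHGAP20, also at 0 without decitabine, read 1.29, 0.275, 0.105 and 0.396 CPM and was highest in replicate 30. In the other direction, MYO15A, an unconventional myosin, read 0.927, 0.534 and 0.672 CPM in Doxo+Cyta and was at least 3.62-fold lower. The protease gene PRSS22 was at least 3.78-fold lower, FAM95B1 at least 2.64-fold and SFTPA2, a surfactant protein with a near-identical neighbour, at least 3.54-fold. All of these genes lay close to the limit of detection. IHH, RNVU1-3 and ARHGAP20 were not tested, and WDR66, PRSS22 and FAM95B1 fell below the filter on low counts when some libraries were left out.

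Promoters of GDF3, which rose from 0, and of TMEM178A, which fell close to 0, are shown because decitabine acts on cytosines followed by guanine (CpG). They are 250 bases before the start of the gene, 5′ to 3′, from RefSeq on GRCh38.p14, with each CpG in capitals (GDF3 at chr12:7695776-7696025, minus strand, TMEM178A at chr2:39665233-39665482, plus strand).
GDF3: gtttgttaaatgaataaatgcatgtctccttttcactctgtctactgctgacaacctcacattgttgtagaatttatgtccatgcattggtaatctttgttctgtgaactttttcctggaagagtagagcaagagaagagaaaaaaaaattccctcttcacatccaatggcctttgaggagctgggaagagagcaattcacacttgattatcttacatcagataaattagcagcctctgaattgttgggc
TMEM178A: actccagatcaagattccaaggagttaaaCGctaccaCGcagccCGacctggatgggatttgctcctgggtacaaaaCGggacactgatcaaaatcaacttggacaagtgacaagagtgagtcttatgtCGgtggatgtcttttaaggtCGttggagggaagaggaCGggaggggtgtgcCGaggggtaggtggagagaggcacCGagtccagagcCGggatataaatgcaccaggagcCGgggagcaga
The GDF3 sequence held 0 CpG and that of TMEM178A 11, beside a median of 11 over the 35116 promoters listed and of 21 (quartiles 13 and 28) over those of the tested genes. The promoter of MET, a further riser, held 24. A promoter was found for 10938 of the 14164 tested genes (77.2%), too few for a comparison of CpG numbers between gene sets, which is void. DNA methylation was not measured in these samples.

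On the CPM scale, which is not divided by gene length, the largest rises were in genes of actin, RNA-binding proteins and chaperones, and in a globin. ACTB, cytoplasmic actin, rose from 1762, 3006 and 1898 CPM to 6008, 7076, 6191 and 5632 CPM, without overlap (log2 fold change 1.49 ± 0.21, adjusted p = 3.99e-05), and the actin-severing protein CFL1 by 1.16. Nucleolin (NCL), a protein of the nucleolus, rose from 819 ± 90.7 CPM (SD, n = 3) to 2568 ± 48.6 CPM (SD, n = 4), and the splicing factor HNRNPA2B1 from 724 ± 76.3 to 1858 ± 85.9 CPM. The chaperones HSPA8, HSP90AA1 and HSPD1 rose by 1.17, 1.80 and 1.35 on the log2 scale. HBE1, the embryonic β-like globin, rose from 461, 597 and 664 to 1194, 695, 1239.5 and 2066 CPM, so the groups lay close but did not overlap, and replicate 33 was the highest.

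The largest falls on this scale were in classical and non-classical MHC class I genes, in TXNIP, the inhibitor of thioredoxin, in the linker histone gene H1F0 and in vimentin (VIM). TXNIP fell from 1295, 1177 and 1551 CPM to 165, 239.8, 202 and 279.6 CPM (log2 fold change -2.60 ± 0.19, adjusted p = 1.45e-07), and H1F0, a histone variant of slowly dividing and differentiated cells, from 1326 ± 142 CPM (SD, n = 3) to 234 ± 20.9 CPM (SD, n = 4). Vimentin fell by 1.10 on the log2 scale. RNA28S5, a ribosomal RNA that poly(A) selection should remove, also met the rule, at 2019, 2481 and 756 CPM in Doxo+Cyta and 1001, 214, 383 and 427 CPM with decitabine, and the groups overlapped. Ribosomal RNA took 0.0254% to 0.249% of the counts of these libraries.

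DNMT1, the maintenance methyltransferase and a main target of decitabine, was higher in relapses that had met the drug. It rose from 489.9, 522 and 473 CPM to 1042, 1172, 1013 and 913 CPM (log2 fold change 1.06 ± 0.16, adjusted p = 5.34e-05), and no library overlapped. UHRF1, which guides DNMT1 to newly replicated DNA, rose from 24.6, 35.4 and 25.0 to 142, 145, 142 and 125 CPM (log2 fold change 2.29 ± 0.27). Of the de novo enzymes, DNMT3B rose by 0.54 and DNMT3A fell by 0.57 on the log2 scale. TET1, which oxidises methylcytosine, fell from 4.60 ± 1.62 CPM (SD, n = 3) to 1.22 ± 0.110 CPM (SD, n = 4). The list of methylation writers, erasers and readers split evenly, with 5 of 16 tested genes higher and 5 lower, shares close to the background.

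Of the genes that take up, activate and degrade cytarabine and decitabine, 12 of 18 tested were higher and 2 lower (median log2 fold change 0.57). The falling genes were DCK, the kinase that activates both analogs, at 65.2, 51.1 and 72.2 CPM in Doxo+Cyta and 35.3, 33.8, 40.2 and 39.9 CPM with decitabine (log2 fold change -0.75 ± 0.16, adjusted p = 8.73e-04), and the concentrative transporter SLC28A3, by 1.34. The equilibrative transporter SLC29A1, the main route of cytarabine into cells, rose by 0.66 and NME1, a nucleoside diphosphate kinase, by 2.01 on the log2 scale. CDA, the deaminase that inactivates both drugs, was too low to be tested, at 0.247, 0 and 0.0611 CPM and 0, 0, 0.105 and 0 CPM.

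Among topoisomerases and anthracycline-handling genes, 5 of 15 were higher and 3 (5 without Doxo+Cyta replicate 19) lower. TOP2B rose from 239.7 ± 15.4 CPM (SD, n = 3) to 399.5 ± 9.99 CPM (SD, n = 4), with 366 CPM in NT, whereas TOP2A, the main target of doxorubicin in dividing cells, read 720.1 ± 162 and 614 ± 51.9 CPM (adjusted p = 0.158, but 0.00244 without Doxo+Cyta replicate 20 and 0.0493 with upper-quartile scaling). NQO1, a quinone reductase, rose by 0.82 and RAC2, a GTPase of the phagocyte oxidase, fell by 1.20 on the log2 scale. Of 27 ABC transporters, 9 were higher and 9 lower (8 and 11 without Doxo+Cyta replicate 20). The drug-efflux pumps ABCB1 and ABCC1 read 100.4 ± 25.9 and 63.0 ± 1.68 CPM in Doxo+Cyta (SD, n = 3) and 86.5 ± 10.8 and 59.3 ± 2.38 CPM with decitabine (SD, n = 4), and neither passed the test (adjusted p = 0.460 for ABCC1 and 0.257, but 0.0121 without Doxo+Cyta replicate 20 for ABCB1). ABCC3, a pump for conjugated anions, fell from 10.3, 17.9 and 15.2 CPM to 2.08, 0.757, 2.73 and 2.30 CPM (log2 fold change -2.86 ± 0.29). ABCA2 and ABCB6 fell by 1.75 and 0.50, and ABCF2, a member of the family that works in translation, rose by 2.06 on the log2 scale. ABCG2 was low, at 1.85, 1.13 and 1.59 CPM and 3.12, 4.82, 2.15 and 1.98 CPM, and its rise of 0.97 was not past the test without Doxo+Cyta replicate 20 or 22 or Doxo+Cyta+DAC replicate 30 or 31 (adjusted p = 0.0531 to 0.0994).

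Genes of DNA replication were higher with decitabine, whereas the shares for genes of mitosis were near the background. Of 48 tested genes of the replication origin and fork, 39 were higher and 1 (3 without Doxo+Cyta replicate 20) lower, with a median log2 fold change of 1.01, against 29.8% and 30.5% of all genes. MCM2, a subunit of the replicative helicase, rose from 278, 328 and 251 CPM to 589, 654, 643 and 607 CPM (log2 fold change 1.13 ± 0.15), and claspin (CLSPN), which signals stalled forks, from 18.8, 23.7 and 20.7 to 108, 111, 122 and 111 CPM (log2 fold change 2.42 ± 0.22). The lower gene was CDT1, a licensing factor that is destroyed in S phase, at 279 ± 35.4 CPM (SD, n = 3) and 156 ± 9.22 CPM (SD, n = 4). Of 41 DNA repair genes, 27 were higher and 2 (1 without Doxo+Cyta replicate 20 or Doxo+Cyta+DAC replicate 30, 31, 32 or 33) lower (median 0.73). XRCC2, of homologous recombination, rose by 2.34 and the checkpoint kinase CHEK1 by 0.58, while the kinase ATM, whose libraries overlapped, fell by 0.88 on the log2 scale. MGMT, which removes alkyl groups from guanine, read 8.26 ± 2.35 CPM (SD, n = 3) and 5.97 ± 0.512 CPM (SD, n = 4), and its fall (adjusted p = 0.0474) was not past the test without Doxo+Cyta replicate 20 or Doxo+Cyta+DAC replicate 30, 31, 32 or 33 (adjusted p = 0.0552 to 0.296).

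Among G1 and S cyclins, their kinases and E2F factors, 17 of 25 were higher and 3 lower (median 0.74). CCNE2, cyclin E2, rose from 12.3, 10.5 and 14.0 CPM to 24.7, 27.1, 36.4 and 31.2 CPM, CCNE1 rose by 1.28 and TFDP1, the partner of E2F factors, by 1.91 on the log2 scale. RBL2, the pocket protein p130 of resting cells, fell from 98.3 ± 29.1 CPM (SD, n = 3) to 35.1 ± 4.37 CPM (SD, n = 4), and cyclin D2 (CCND2) fell by 0.60, with overlap. Of 6 tested inhibitors of these kinases, 5 were lower and 1 (0 without Doxo+Cyta replicate 19 or 22) higher, with CDKN1C and CDKN3, the phosphatase that acts on these kinases, among them. The exception was CDKN1A, p21, at 11.9, 46.0 and 13.1 CPM and 34.5, 91.5, 67.7 and 49.6 CPM. Replicate 20 lay among the decitabine libraries, and the rise (log2 fold change 1.37 ± 0.42, adjusted p = 0.0124, or 2.28 without replicate 20) was not past the test without Doxo+Cyta replicate 19 or 22 (adjusted p = 0.0621 to 0.0626). In the mitosis list 11 of 43 genes were higher and 14 lower, with a median of -0.09. BUB1, a spindle checkpoint kinase, fell from 691, 536 and 765 CPM to 256, 265, 283 and 336 CPM (log2 fold change -1.22 ± 0.12), AURKB fell by 0.45 and MYBL2, a transcription factor of the cell cycle, rose by 1.26. CDK1 read 103 ± 3.87 and 96.8 ± 11.2 CPM (adjusted p = 0.473).

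Genes that build ribosomes and genes that encode ribosomal proteins moved in opposite directions. Of 53 assembly factors, 47 were higher and 3 lower, with a median log2 fold change of 1.48. UTP20, of the small-subunit processome, rose from 10.4, 7.61 and 11.4 CPM to 85.5, 92.2, 82.7 and 62.7 CPM (log2 fold change 3.04 ± 0.24, adjusted p = 3.01e-07). The promoter of UTP20 (chr12:101279855-101280104, plus strand) is shown because MYC and its partners bind CACGTG, here in capitals.
UTP20: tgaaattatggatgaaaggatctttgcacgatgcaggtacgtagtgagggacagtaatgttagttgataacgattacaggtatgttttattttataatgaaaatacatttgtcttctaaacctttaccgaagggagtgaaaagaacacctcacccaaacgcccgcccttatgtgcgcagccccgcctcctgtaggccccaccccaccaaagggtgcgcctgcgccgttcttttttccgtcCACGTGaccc
The letters stand in it 1 time, and the promoter of PFAS, a rising gene of purine synthesis, held them 0 times. They were found in 4 of the 44 ribosome assembly promoters listed (9.09%), in 8.58% of the 10938 promoters of tested genes and in 6.34% of all 35116. Not every tested gene had a listed promoter, so these shares are not compared. Fibrillarin (FBL), a methyltransferase of ribosomal RNA, did not pass the test (log2 fold change 0.11 ± 0.12, adjusted p = 0.436, but 0.0173 without Doxo+Cyta replicate 20), and TAF1D, of the factor that starts transcription of ribosomal RNA, fell by 0.77. Of 50 cytosolic ribosomal protein genes, 0 (1 without Doxo+Cyta replicate 20) were higher and 42 lower, with a median of -0.48. RPS2 fell from 4811, 5626 and 4140.5 CPM to 2742, 2807, 2575 and 2862 CPM (log2 fold change -0.82 ± 0.10). Replicate 20 held the highest level of these genes in Doxo+Cyta, and without it 35 were lower and the median was -0.29. Many ribosomal protein genes have processed copies elsewhere in the genome, with which reads could have been shared.

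MYC, the transcription factor best known for driving ribosome production and growth, rose from 174, 216 and 172 CPM to 504, 455, 512 and 539.9 CPM (log2 fold change 1.42 ± 0.12, adjusted p = 3.58e-07), and NT cells held 279 CPM. Its antagonist MXI1, which competes for the same partner, fell from 58.6, 38.3 and 56.6 to 7.29, 8.39, 8.13 and 11.9 CPM (log2 fold change -2.53 ± 0.22). In the whole network 2 of 12 genes were higher and 6 lower. Genes that supply growth were mostly higher. Of 20 aminoacyl-tRNA synthetases, which charge transfer RNAs, 15 were higher and 2 lower (median 0.77), from IARS at 1.66 to DARS at -1.01 on the log2 scale. Of 14 amino acid transporters, 8 were higher and 0 (1 without Doxo+Cyta replicate 20) lower (median 0.92). SLC7A11, the cystine importer, rose from 7.48, 7.94 and 7.94 CPM to 19.2, 29.6, 26.6 and 36.7 CPM, and SLC7A5 and SLC1A5, importers of leucine and glutamine, rose by 1.59 and 1.11, whereas SLC3A2, the chain that carries SLC7A5 and SLC7A11 to the membrane, read 126 ± 30.2 and 135 ± 10.6 CPM (adjusted p = 0.525, but 0.0187 without Doxo+Cyta replicate 20).

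Of 19 genes of purine and pyrimidine synthesis, 16 were higher and 2 lower (median 0.81). PFAS, an enzyme of the purine ring, rose from 19.7, 28.9 and 20.4 CPM to 152, 146, 155 and 125 CPM (log2 fold change 2.65 ± 0.35). CAD, which starts pyrimidine synthesis, rose by 1.67, ATIC by 1.22 and IMPDH1 by 0.73, while IMPDH2, an isoform of the latter, fell by 0.62 on the log2 scale. In the serine, one-carbon and ATF4 list 13 of 20 genes were higher and 2 lower (median 0.54). PSAT1 and PHGDH, of serine synthesis, rose by 1.75 and 0.93. The stress factor ATF4 itself read 586 ± 66.1 and 577 ± 14.8 CPM (adjusted p = 0.853), and its target DDIT3, a mediator of stress-induced death, fell by 1.25. The asparagine synthetase ASNS did not pass the test, at 42.9 ± 9.94 and 54.2 ± 8.60 CPM (adjusted p = 0.104, but 0.0152 without Doxo+Cyta replicate 20).

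Of 34 proteasome genes, 29 were higher and 0 (1 without Doxo+Cyta replicate 22) lower, with a median of 0.67. The activator PSME3 rose from 64.4, 78.3 and 66.2 CPM to 295, 315, 302 and 279 CPM (log2 fold change 2.10 ± 0.13). Among chaperones and genes of the unfolded protein response, 16 of 34 were higher and 7 lower. HSPH1, a cytosolic chaperone, rose from 73.5 ± 1.75 CPM (SD, n = 3) to 279.6 ± 14.8 CPM (SD, n = 4), whereas HSPA5 and DNAJB9, chaperones of the endoplasmic reticulum, fell by 0.52 and 1.35 on the log2 scale. HSPA1A, the stress-induced member, read 0.618, 0.267 and 0.428 CPM and 0.184, 0.619, 0.315 and 0.238 CPM, and its near-identical neighbour HSPA1B makes this value uncertain.

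Targets of the hypoxia-inducible factors (HIF) were lower with decitabine. Of 21 tested, 16 were lower and 2 higher, with a median log2 fold change of -1.56. ANKRD37 fell from 15.5, 15.8 and 19.3 CPM to 0.796, 1.03, 1.21 and 1.11 CPM (log2 fold change -4.01 ± 0.26, adjusted p = 8.19e-08), and BNIP3, which directs mitochondria to autophagy, from 459, 495 and 562 to 116, 123, 134 and 195 CPM (log2 fold change -1.83 ± 0.17). VEGFA, the vascular growth factor, fell by 0.77. PFKFB3, which speeds glycolysis, went the other way, from 33.0 ± 3.02 CPM (SD, n = 3) to 87.6 ± 1.76 CPM (SD, n = 4). CA9, a carbonic anhydrase used as a hypoxia marker, was hardly detected, at 0.185, 0.200 and 0.428 CPM and 0 CPM in all 4 decitabine libraries.

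The core of the motif that HIF binds reads ACGTG in many of its targets, and the promoters of ANKRD37 (chr4:185396591-185396840, plus strand) and P4HA2 (chr5:132227092-132227341, minus strand), a member of the list chosen here after its values were seen, are printed to show a promoter with and one without it. P4HA2, a collagen prolyl hydroxylase, changed by -2.67 on the log2 scale. ACGTG and its reverse complement CACGT are in capitals, and both strands were searched.
ANKRD37: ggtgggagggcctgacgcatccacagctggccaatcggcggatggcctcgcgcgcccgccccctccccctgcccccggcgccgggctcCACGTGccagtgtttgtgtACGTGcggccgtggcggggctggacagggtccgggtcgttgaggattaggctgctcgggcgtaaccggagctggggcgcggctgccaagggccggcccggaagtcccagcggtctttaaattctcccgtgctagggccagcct
P4HA2: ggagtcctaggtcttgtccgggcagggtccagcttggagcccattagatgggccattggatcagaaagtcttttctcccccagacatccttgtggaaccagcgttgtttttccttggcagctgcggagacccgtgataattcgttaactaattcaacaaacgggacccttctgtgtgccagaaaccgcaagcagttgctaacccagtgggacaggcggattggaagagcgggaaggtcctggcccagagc
ANKRD37 held 3 matches and P4HA2 0 in this window. In ANKRD37 the stretch CACGTG reads the same on both strands and was counted on each. A match was found in 10 of the 18 HIF targets with a listed promoter (55.6%), in 23.0% of the 10938 promoters of tested genes and in 18.5% of all 35116 listed, which says only where these letters stand. The list was made of known HIF targets and not every tested gene had a listed promoter, so these shares are not compared.

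In glycolysis 9 of 21 genes were lower and 5 (3 without Doxo+Cyta replicate 19 or 22) higher (median -0.19). ALDOC, an aldolase isoform, fell from 594, 543 and 558 CPM to 62.9, 97.6, 76.7 and 108 CPM (log2 fold change -2.71 ± 0.17), the glucose transporter SLC2A1 fell by 0.79 and ENO1 by 0.41, whereas the lactate transporter SLC16A1 rose by 1.52. PKM, pyruvate kinase, and the hexokinase HK1 did not pass the test (adjusted p = 0.762 and 0.0811), and the fall of HK2 by 0.59 was not past the test without Doxo+Cyta replicate 22 (adjusted p = 0.101). Nuclear genes of the respiratory chain were more often higher, 22 (14 without Doxo+Cyta replicate 19 or 22) of 52 against 4 lower, but with a median of only 0.24, and without replicate 20 these counts were 32 and 3 with a median of 0.41. NDUFS6, of complex I, rose by 1.25 and NDUFS4, of the same complex, fell by 0.84 on the log2 scale. The 13 genes of the mitochondrial genome were not analysed here.

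Lysosomal genes were more often lower, 18 of 35 against 6 higher (median -0.35). TFEB, the transcription factor that governs lysosome formation, fell from 7.17, 9.67 and 8.74 CPM to 1.65, 1.38, 1.78 and 1.43 CPM (log2 fold change -2.43 ± 0.21), while the membrane protein LAMP1 rose from 41.8 ± 2.97 CPM (SD, n = 3) to 113 ± 12.2 CPM (SD, n = 4) and the channel MCOLN1 by 1.85. Cholesterol synthesis had 2 (1 without Doxo+Cyta replicate 19 or 22) higher and 6 (13 without Doxo+Cyta+DAC replicate 31) lower genes of 24. FDFT1, squalene synthase, fell by 1.31 on the log2 scale. Fatty acid synthesis had 7 higher and 2 (4 without Doxo+Cyta replicate 20 or Doxo+Cyta+DAC replicate 31) lower of 14. FASN rose by 0.88 and the elongase ELOVL6 by 1.43.

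Genes of the erythroid program were more often lower, with exceptions among the globins. Of 15 genes of heme synthesis, 8 were lower and 1 higher (median -0.74). SLC25A37, mitoferrin, which brings iron into mitochondria, fell from 675, 487 and 546 CPM to 151, 125, 150.3 and 201 CPM (log2 fold change -1.86 ± 0.14), and ferrochelatase (FECH), which inserts it into heme, fell by 1.03. ALAS2, the erythroid form of the first enzyme, fell from 115, 81.6 and 85.7 to 34.4, 23.4, 39.3 and 75.7 CPM, whereas the general form ALAS1 read 104 ± 8.30 and 106 ± 11.1 CPM (adjusted p = 0.812). The higher gene was UROD, an enzyme of the middle of the pathway, by 1.01.

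Of 9 tested globin-list genes, 6 were lower and 2 (1 without Doxo+Cyta replicate 20 or Doxo+Cyta+DAC replicate 33) higher. The lower genes numbered 4 without Doxo+Cyta replicate 19 or 20 or Doxo+Cyta+DAC replicate 31 or 32, and 5 with any other library left out. The adult β-globin HBB fell from 499.8, 484 and 538 CPM to 132, 137, 123 and 219 CPM (log2 fold change -1.73 ± 0.17), while HBE1, described above, rose by 1.18 ± 0.26. HBA1 and HBG1 had near-identical neighbours, so their values of 0.39 and -0.52 are uncertain. HBA1 was not past the test without Doxo+Cyta replicate 20 or 22 or Doxo+Cyta+DAC replicate 33 (adjusted p = 0.0508 to 0.116), and HBG1 not past the test without Doxo+Cyta replicate 19 or 20 or Doxo+Cyta+DAC replicate 30, 31, 32 or 33 (adjusted p = 0.0522 to 0.215). NT cells held 164 CPM of HBE1. Among red-cell membrane and blood group genes, 14 of 26 were lower and 3 higher. The water channel AQP1 fell from 17.3, 6.74 and 10.4 CPM to 2.02, 1.65, 1.31 and 1.27 CPM, and the erythropoietin receptor EPOR fell by 0.50 on the log2 scale. Glycophorin B (GYPB) rose by 0.50, whereas the transferrin receptor TFRC read 1068 ± 327 and 974 ± 179 CPM (adjusted p = 0.552, but 0.0267 without Doxo+Cyta replicate 20). Band 3, SLC4A1, ranged from 1.89 to 42.4 CPM within the 7 libraries (adjusted p = 0.689). Of 17 genes of iron handling, 4 were higher and 7 lower. NCOA4, which delivers ferritin for breakdown, fell by 1.27, and the reductase STEAP3 rose by 2.16.

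The transcription factors of these lineages were more often lower as well, 12 of 22 against 2 higher. GATA1, the master factor of both lineages, fell from 349.7, 421 and 330.5 CPM to 175, 172, 194 and 187 CPM (log2 fold change -1.01 ± 0.10, adjusted p = 1.72e-06), and GATA2 from 966 ± 117 CPM (SD, n = 3) to 508 ± 39.4 CPM (SD, n = 4). The megakaryocyte factor FLI1 fell by 1.21, the erythroid factor KLF1 by 0.65 and the myeloid factor SPI1 by 0.73 on the log2 scale, while RUNX1 rose by 0.62 and CEBPA, a granulocyte factor whose libraries overlapped, by 1.03. TAL1 fell by 0.26 and was not past the test without Doxo+Cyta replicate 19 or 22 or Doxo+Cyta+DAC replicate 31 (adjusted p = 0.0530 to 0.0867). MYB, a progenitor factor, read 183 ± 32.9 and 158 ± 15.7 CPM (adjusted p = 0.219, but 0.0302 without Doxo+Cyta replicate 20).

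Megakaryocyte and platelet genes split, with 10 of 28 higher and 11 lower. GP9, a part of the receptor for von Willebrand factor, fell from 152, 199 and 167 CPM to 23.1, 43.3, 31.2 and 28.6 CPM (log2 fold change -2.45 ± 0.20), VWF itself fell by 3.06 (2.44 without Doxo+Cyta replicate 22), and the integrin chain ITGA2B fell by 0.59. Thrombospondin (THBS1) rose from 13.6, 8.61 and 21.9 CPM to 67.8, 321, 103 and 123 CPM, so that the 4 decitabine libraries varied widely but all lay above the others (log2 fold change 3.38 ± 0.48, or 2.73 without replicate 31). Of 37 stem-cell and leukemia stem-cell genes, 10 were higher and 15 lower (median log2 fold change -0.35). By the stricter rule, 4 were higher and 8 lower. Angiogenin (ANG), described above and a member of this list, changed by -4.92 on the log2 scale. ERG, a stem-cell transcription factor, rose by 0.92 and KIAA0125 by 1.75. CD34 was low, at 1.18, 3.20 and 2.26 CPM and 3.67, 2.34, 5.67 and 4.20 CPM, and its rise (adjusted p = 0.0376) was not past the test without Doxo+Cyta replicate 19 or 22 or Doxo+Cyta+DAC replicate 30, 32 or 33 (adjusted p = 0.0509 to 0.174).

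Genes of antigen presentation were more often lower in both classes. Of 8 tested MHC class II genes, 7 were lower and 0 higher (median -1.74). These genes were low, and 5 of them had fewer than 10 counts in at least 1 sample. With at least 10 counts in every sample 3 were tested, 2 of them lower, and the median was -0.76. CD74, the invariant chain, fell from 6.31, 6.74 and 4.03 CPM to 0.367, 0.275, 0.262 and 0.475 CPM (log2 fold change -4.04 ± 0.36, adjusted p = 7.84e-07), and CIITA, the activator of the whole family, from 2.10, 2.80 and 2.51 to 0.919, 0.344, 1.10 and 1.50 CPM. The promoters of CD74 (chr5:150412911-150413160, minus strand) and HLA-DPB1 (chr6:33075740-33075989, plus strand), the latter chosen after its values were seen, are shown because members of the family share a promoter box that contains the letters CCAAT or their reverse complement ATTGG, here in capitals.
CD74: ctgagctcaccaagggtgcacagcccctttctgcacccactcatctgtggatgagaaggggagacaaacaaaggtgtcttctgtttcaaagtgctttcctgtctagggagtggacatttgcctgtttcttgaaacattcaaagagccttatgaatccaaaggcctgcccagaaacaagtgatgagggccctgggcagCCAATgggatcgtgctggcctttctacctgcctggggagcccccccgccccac
HLA-DPB1: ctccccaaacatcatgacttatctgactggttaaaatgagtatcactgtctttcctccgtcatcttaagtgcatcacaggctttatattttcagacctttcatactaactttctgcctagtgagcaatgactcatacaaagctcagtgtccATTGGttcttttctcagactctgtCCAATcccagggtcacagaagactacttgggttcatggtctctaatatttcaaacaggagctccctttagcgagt
CD74 held 1 match and HLA-DPB1 2, and 35.3% of the promoters of tested genes and 32% of all listed held at least 1. HLA-DPB1 changed by -2.67 on the log2 scale.

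Of 17 genes of MHC class I and antigen processing, 12 were lower and 2 higher (median -0.83). HLA-E fell from 1222, 1048 and 1205 CPM to 254, 318, 258 and 254 CPM (log2 fold change -2.10 ± 0.15). HLA-B, HLA-C and HLA-F fell by 1.32, 1.37 and 2.28, and their partner B2M, which lies outside the MHC, by 0.83 on the log2 scale. These genes have copies on alternate contigs and the HLA genes near-identical relatives, and reads that matched several places were left out, so their levels are uncertain. NT cells held 715 CPM of HLA-E, between the groups. TAP2, of the peptide transporter, rose from 88.2 ± 3.52 CPM (SD, n = 3) to 182 ± 12.5 CPM (SD, n = 4).

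Interferon-stimulated genes were more often lower, 23 of 45 against 8 higher (median -0.44). IFIH1, the sensor of double-stranded RNA, fell from 46.0, 30.6 and 47.9 CPM to 10.1, 11.3, 10.1 and 13.9 CPM (log2 fold change -1.88 ± 0.20), IRF7 by 1.17 and DDX60 by 1.17. ISG15 fell by 0.70 and was not past the test without Doxo+Cyta replicate 20 (adjusted p = 0.0511). IFI6 did not pass the test (adjusted p = 0.350), and CMPK2, a mitochondrial nucleotide kinase, rose by 1.37. Of 15 sensor-pathway genes, 3 were higher and 5 lower. The adaptors MAVS and TMEM173 (STING) fell by 0.77 and 0.74, and MB21D1 (cGAS), the DNA sensor, rose from 15.4 ± 0.296 CPM (SD, n = 3) to 28.4 ± 3.87 CPM (SD, n = 4).

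In the NF-kB and inflammatory list 9 of 26 genes were lower and 2 (4 without Doxo+Cyta replicate 20) higher. TNFAIP2 fell from 139.8, 145 and 121 CPM to 13.5, 15.1, 24.8 and 24.5 CPM (log2 fold change -2.80 ± 0.19), and the cytokine IL1B from 279.5 ± 88.2 CPM (SD, n = 3) to 113 ± 36.3 CPM (SD, n = 4). NFKBIA and TNFAIP3, feedback inhibitors of the pathway, fell by 0.91 and 0.71. CXCL8 read 4.58, 7.67 and 7.94 and 3.06, 8.67, 9.24 and 8.47 CPM (adjusted p = 0.731). Of 34 immediate early genes, 10 were higher and 8 (5 without Doxo+Cyta replicate 20 or Doxo+Cyta+DAC replicate 33) lower. EGR1 fell from 87.7, 243 and 123 CPM to 45.0, 60.2, 60.6 and 57.4 CPM, PHLDA1 rose from 11.3, 8.54 and 11.5 to 23.5, 70.6, 42.0 and 33.7 CPM, and FOSB rose by 0.80 with overlap. FOS, JUN and IER2 did not pass the test (adjusted p = 0.958, 0.109 and 0.275), but JUN fell with upper-quartile scaling (log2 fold change -0.32, adjusted p = 0.0288).

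JAK2, the kinase activated in HEL cells, fell from 476, 272 and 482 CPM to 165, 152, 139.8 and 190.4 CPM (log2 fold change -1.34 ± 0.19, adjusted p = 4.36e-05), and NT cells held 425 CPM. Of its targets among the STAT factors, STAT5B fell by 0.78 and STAT5A read 287 ± 16.7 and 289 ± 17.2 CPM (adjusted p = 0.935). CISH, a target of STAT5, did not pass the test (log2 fold change 0.26 ± 0.14, adjusted p = 0.127, but 0.00924 without Doxo+Cyta replicate 20), nor did JAK1 (adjusted p = 0.842). CSF3R, the receptor of granulocyte colony-stimulating factor, fell from 6.87 ± 0.878 CPM (SD, n = 3) to 1.67 ± 0.595 CPM (SD, n = 4). The whole list had 7 higher and 14 lower of 37. Of 25 receptor tyrosine kinases, 13 were lower and 4 higher. PDGFRB fell from 47.5, 50.6 and 43.0 CPM to 5.94, 6.53, 9.08 and 7.60 CPM (log2 fold change -2.69 ± 0.14), EPHB3 by 3.96 and IGF1R, with overlap, by 0.72. KIT read 227 ± 96.8 and 178 ± 18.6 CPM (adjusted p = 0.191, but 0.00150 without Doxo+Cyta replicate 20), and FLT3 had at most 0.0611 CPM in any library. CSF1R fell by 2.47, and by 1.83 without replicate 20.

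Among FOXO factors and genes of the thioredoxin axis, 12 of 21 were lower and 2 (1 without Doxo+Cyta replicate 19 or 22 or Doxo+Cyta+DAC replicate 30 or 33) higher (median -0.69). PIK3IP1, an inhibitor of PI3 kinase, fell from 17.1, 12.5 and 19.0 CPM to 1.04, 2.06, 1.05 and 1.74 CPM (log2 fold change -3.48 ± 0.33), PINK1 fell by 1.02 and the thioredoxin reductase TXNRD1 rose by 1.18. Of 25 p53 target genes, 11 were higher and 4 lower. The authors reported a loss-of-function P53 mutation in all groups, and p53 activity was not measured here. MDM2, which degrades p53, rose from 81.8, 74.5 and 88.2 CPM to 179, 251, 231 and 196 CPM (log2 fold change 1.39 ± 0.16), TIGAR, which lowers glycolysis, rose by 2.50 (3.49 without Doxo+Cyta replicate 20) and TP53INP1 fell by 1.99. In the BCL2 family 3 of 17 genes were higher and 7 lower (median -0.10). By the stricter rule, 0 were higher and 5 lower. BNIP3, described above and also a member of this list, changed by -1.83 on the log2 scale. The survival genes BCL2, BCL2L1 and MCL1 did not pass the test (adjusted p = 0.558, 0.294 and 0.875), nor did BCL2L11, BIM (adjusted p = 0.527), and the pore-forming BAX rose from 42.0 ± 14.1 CPM (SD, n = 3) to 80.5 ± 10.3 CPM (SD, n = 4). Of 31 adhesion genes, 6 were higher and 11 lower. ITGAX fell from 6.49, 5.67 and 3.79 CPM to 0.490, 0.413, 0.420 and 0.554 CPM, ITGA5 fell by 0.94, ITGA4 rose by 0.96, and CD44 and ITGB1 did not pass the test (adjusted p = 0.249 for CD44 and 0.354, but 0.0312 without Doxo+Cyta replicate 20 for ITGB1). CXCR5, a chemokine receptor, rose from 0.371, 0.400 and 0.183 CPM to 1.72, 1.51, 7.61 and 1.35 CPM (log2 fold change 3.28 ± 0.75, or 2.25 without replicate 32, the highest).

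Cancer-testis, germline and imprinted genes are classes that DNA methylation is known to keep silent, and the counts given for them rest on few genes. Of 65 cancer-testis and germline genes, 17 were tested, 4 were higher and 3 (5 without Doxo+Cyta+DAC replicate 33) lower. TEX15 rose from 2.35, 1.53 and 4.22 CPM to 19.1, 21.4, 22.8 and 18.3 CPM (log2 fold change 2.91 ± 0.31), and MAGEA1, which was already expressed without decitabine, from 36.7, 73.7 and 45.7 to 152, 136, 187 and 185 CPM. MOV10L1 fell by 2.00, PRAME read 88.2 ± 10.3 and 75.2 ± 9.72 CPM (adjusted p = 0.0981, but 0.0286 without Doxo+Cyta+DAC replicate 30 and 0.0341 with upper-quartile scaling), MAGEA3 varied from 0.0525 to 4.12 CPM (adjusted p = 0.402, but 0.0489 without Doxo+Cyta replicate 20), and CTAG1B had no count in any of the 7 libraries. Of 30 tested imprinted genes, 7 were higher and 7 lower (8 and 10 without Doxo+Cyta replicate 20). H19, IGF2, PEG3, PEG10 and MEG3 stayed at or under 0.122 CPM in every library, and KCNQ1OT1, the noncoding RNA beside CDKN1C, read 23.6 ± 6.72 and 20.9 ± 1.70 CPM (adjusted p = 0.384, but 0.0107 without Doxo+Cyta replicate 20).

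Of 120 tested KRAB zinc finger genes of chromosome 19, which silence repeats, 48 were higher and 17 lower (median 0.29). ZNF613 rose from 0.0618, 0.133 and 0.183 CPM to 0.735, 0.481, 0.787 and 1.27 CPM and ZNF160 fell from 95.5 ± 16.7 CPM (SD, n = 3) to 32.8 ± 4.00 CPM (SD, n = 4). Polycomb and trithorax genes had 13 higher and 11 lower of 39 (12 and 14 without Doxo+Cyta replicate 20). The methyltransferase EZH2 rose by 0.43 and its partner SUZ12 by 0.77, and CBX7, a reader of the polycomb mark, fell from 6.74, 4.74 and 4.46 CPM to 0.674, 0.963, 1.10 and 1.19 CPM. Of 17 histone deacetylases and sirtuins, 3 were higher and 8 lower (4 and 6 without Doxo+Cyta replicate 20), with a median of -0.24. Past 2-fold and an adjusted p of 0.01, 0 were higher and 3 lower, and HDAC9 was not among the latter. HDAC1, HDAC2 and SIRT1 rose by 0.71, 0.46 and 0.94. HDAC9 read 0.124, 0.667 and 1.65 CPM in Doxo+Cyta and 0, 0, 0.157 and 0 CPM with decitabine, against 21.7 CPM in NT cells, and its fall (adjusted p = 0.0109) was not past the test without Doxo+Cyta replicate 22 (adjusted p = 0.0900). Among aldehyde dehydrogenases, 3 of 15 were higher and 4 lower. ALDH3B1 fell from 23.8, 17.5 and 22.8 CPM to 1.10, 0.963, 1.05 and 2.61 CPM (log2 fold change -3.94 ± 0.29), ALDH2 by 2.66, and ALDH1B1 rose by 1.04.

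The differences were spread over the genome. The median log2 fold change of the 23 chromosomes, Y left out, lay between -0.13 for chromosome 6 and 0.11 for chromosome 13. Over 248 windows of 10 Mb with at least 20 tested genes it ran from -0.47 at 50 to 60 Mb of chromosome 22 to 0.59 at 130 to 140 Mb of chromosome 12, where 66.7% of 24 genes were higher and 4.17% lower. Each of these windows held 24 tested genes, so its median rests on few genes.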

How the data were processed

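Total RNA of the 12 samples was sequenced from TruSeq libraries as 100 bp paired-end reads. After quality filtering, the authors used Bowtie2 2.2.8, which does not span splice junctions, with the GRCh38 genome, and deposited raw fragment counts per gene made with featureCounts 1.6.0, without strand and without fragments that matched several places or genes. Of 26485 genes in the table, 4 had no value and were left out.

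Here the counts of all 12 samples were fitted with edgeR 4.0.16 in R 4.3.3 (TMM scaling, filterByExpr, glmQLFit and glmQLFTest, two-sided), with Doxo+Cyta+DAC minus Doxo+Cyta as the contrast, Benjamini-Hochberg adjustment over 14164 genes and no covariate, since no batch was labelled. CPM used the same scaling. Values of whole libraries were compared by exact permutation (scipy 1.17.1). P-values measure the spread between these cultures. Intervals and floors cover counting error only. The fit was tested on simulated data with far fewer changed genes than were called here. Error rates under so broad a change were not tested.

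Named genes were, in each direction, the 12 largest fold changes that met level, overlap and leave-one-out criteria, the 8 largest CPM differences, up to 5 genes at 0 in the other group, and marked or leading members of 57 gene lists. The comparison and the lists were chosen with earlier results of these data known. Of these lists, 55 had a tested member. Myeloid progenitor and granulocyte markers had none, and the genes encoded by mitochondria were not analysed here. Alternatives were RLE and upper-quartile scaling, other filters, a fit of the 2 groups alone, glmTreat, DESeq2 1.42.0 and leaving out each library. Some genes that met the rule are not reported here.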

Additional observations from a re-analysis of the deposited data

Results flagged for a closer look

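In the 4 Doxo+Cyta+DAC libraries, 21 of the 239 named genes (8.79%) had a library that stood apart from the other 3 by Dixon's test at the 95% level, where chance gives about 1 in 20. Groups of 3 libraries were not tested. Replicate 33 was the library apart for ALDH3B1 (2.61 CPM), CDK1 (113 CPM), CDKN3 (24.5 CPM), FAM178B (1.74 CPM), FECH (85.4 CPM), HBB (219 CPM), ITGB1 (291 CPM) and ZNF160 (38.7 CPM), each above the others. The other libraries held 123 to 137 CPM of HBB, a globin, and 58.3 to 59.8 CPM of FECH, the last enzyme of heme synthesis. Replicate 31 was above the others for HLA-C (436 CPM), HLA-E (318 CPM), TIGAR (15.6 CPM), TP53INP1 (1.38 CPM) and UROD (464 CPM), and below them for FOS (3.78 CPM) and TAL1 (327 CPM). Replicate 30 was above the others for ERG (31.6 CPM) and below them for ATF4 (555 CPM) and CXCL8 (3.06 CPM). Replicate 32 was above the others for CXCR5 (7.61 CPM, against 1.35 to 1.72 CPM), COL17A1 (0.105 CPM) and HDAC9 (0.157 CPM), and the last 2 genes had no count in the other 3 libraries. With those libraries at 0, Dixon's test flags any count, so the share of 8.79% holds 2 flags that it could not have withheld. The cause of these departures was not tested.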

How the results depend on the processing

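The 3300 genes past a 2-fold change and an adjusted p of 0.01 became 1054 (390 higher and 664 lower) when glmTreat tested against a 2-fold change itself, which is a stricter question. The other fits gave 2582 to 3443 genes, and leaving out each library gave 2973 to 3378 genes, with 1241 to 1566 higher and 1732 to 1851 lower. Upper-quartile scaling put the median log2 fold change of all genes at -0.0875 and gave 1189 higher and 2059 lower genes. The difference in genes detected was -229 at 5 counts (exact permutation p = 0.257) and ranged from -231 to -147 genes when each library was left out, the last without Doxo+Cyta replicate 20. The difference in the share of the 100 most abundant genes ranged from -4.78 to -2.85 percentage points, the last again without Doxo+Cyta replicate 20. With a library left out these exact tests cannot reach 0.05.

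Of 204 named genes that were called, 192 kept their call in every fit that tested them, glmTreat left aside. Another 12 lost it in at least 1 fit, and 0 changed sign. The genes named for the largest fold changes had been required to pass with each library left out. Leaving out a library ended the call of PECAM1 (without Doxo+Cyta replicate 19 or Doxo+Cyta+DAC replicate 30, 31 or 32, adjusted p = 0.0627 to 0.211) and of KDR (without Doxo+Cyta replicate 19 or 20 or Doxo+Cyta+DAC replicate 31 or 32, 0.0513 to 0.0751). Among the other fits, CD34 (0.0618), HBA1 (0.0664) and PECAM1 (0.179) lost it with upper-quartile scaling, CD34, KDR, MGMT and PECAM1 with the 2 groups alone (0.0504 to 0.0715), MGMT (0.0683) and PECAM1 (0.0688) with no filter, PECAM1 with at least 10 counts in every sample (0.0746) and MGMT with DESeq2 (0.0552). Upper-quartile scaling gained the calls of JUN (0.0288), TOP2A (0.0493), PRAME (0.0341) and COL1A1 (0.0403), all lower. Where edgeR called 0 genes of the lists of cytosolic ribosomal proteins (higher), amino acid transporters (lower), MHC class II (higher) and proteasome (lower), DESeq2 also called 0, and an unadjusted p under 0.05 was reached by 0, 0, 0 and 1 genes. Of the genes that were not called, these crossed 0 in log2 fold change when a library was left out: ALAS1 (-0.0145 to 0.0974), ATF4 (-0.0869 to 0.0723), BCL2L1 (-0.29 to 0.0532), CXCL8 (-0.0954 to 0.39), FBL (-0.0166 to 0.29), FOS (-0.32 to 0.39), IER2 (-0.62 to 0.28), IFI6 (-0.44 to 0.11), JAK1 (-0.20 to 0.12), MAGEA3 (-0.13 to 2.60), MCL1 (-0.0769 to 0.0426), PKM (-0.10 to 0.0297), SLC3A2 (-0.0215 to 0.32), SLC4A1 (-1.05 to 0.29), STAT5A (-0.0422 to 0.0483) and TFRC (-0.37 to 0.0291). The signs of ALAS1 (-0.0586) and STAT5A (-0.0785) turned with upper-quartile scaling, and those of ALAS1 (-0.00488) and STAT5A (-0.0261) with a minimum of 10 counts in every sample. The cause was not tested. No paired analysis was possible because the replicate numbers of the groups do not repeat. Depth limits genes near 3 counts per library.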
